A study of Oryza sativa with 10 samples.

Results

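The comparison described here is that of green manure (GM) against chemical fertilizer (CF) in the developing endosperm of rice, Oryza sativa, cultivar Nijinokirameki. It holds 4 of the 10 libraries of the study, the 2 GM and 2 CF endosperm libraries, and takes in every locus of their count table. Of 37727 loci, 23094 held enough reads to be tested, 14633 did not, and 6716 of those had no read in any library. Under GM, hairy vetch grown as a cover crop was plowed into the paddy soil and chemical N, PO4 and K were each 0 kg/ha. Under CF, a basal dressing supplied 56 kg/ha of N, 176 kg/ha of PO4 and 56 kg/ha of K. All plants were wild type and were sampled on day 5 after flowering in 2024. A replicate was made of more than 10 spikelets of 3 panicles of a single plant; the husk was removed and the endosperm was separated from the embryo while frozen. The labels do not mention repeated plots, so the p-values measure the spread between these plants and may miss differences between plots. By its title, the study asks how green manure relates to the heat resilience and the cooling of panicles and endosperm at grain filling; no temperature accompanies the samples.

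Rice endosperm early in grain filling turns imported sucrose and amino acids into starch and storage proteins, among them the glutelins, prolamins, globulin and the small seed allergen proteins. Its outer layer, the aleurone, and the neighbouring embryo differ from the starchy tissue by oil bodies, by late embryogenesis abundant (LEA) proteins that build up before drying, and by regulators of maturation and dormancy such as VP1. All of these cells can also mount the heat shock response, in which heat stress transcription factors switch on genes of chaperones, their co-chaperones and parts of the ubiquitin system.

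GM libraries held 20771235 and 18656783 counted reads, and CF libraries 19173953 and 12200510. Of 61 genes listed for starchy endosperm, 46 were tested, and their summed level was 71559 and 95639 CPM (read counts scaled to library size) in GM endosperm, against 117163 and 93819 CPM in CF endosperm. Genes listed for other tissues had reads in all libraries. The 7 genes listed for the maternal seed coat and nucellus summed to 2670 and 2523 CPM in GM, against 3597 and 3157 CPM in CF. None of the 7 was called. Light harvesting genes are 3 of the 7, and the other 4 summed to 1584 and 1409 CPM in GM, against 1812 and 1868 CPM in CF. Most of that sum was a single gene, XA13, with 1169 and 1013 CPM in GM, against 1474 and 1400 CPM in CF. Whether these reads came from maternal tissue was not tested. The embryo meristem gene OSH1 had 1 and 6 reads in GM libraries and 0 and 0 in CF libraries. The scaling used trimmed means of M values (TMM), and CPM are not divided by gene length, so they compare libraries within a gene and do not rank genes by transcript number.

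A gene was called when edgeR's quasi-likelihood test gave a Benjamini-Hochberg adjusted p under 0.05 over the 23094 genes. The test called 292 genes, 1.26% of those tested, of which 285 (1.23%) were lower and 7 (0.0303%) were higher in GM endosperm. In all 285 the 2 GM libraries lay under both CF libraries, and in all 7 they lay above both. The calls come from the same 4 libraries, so this order goes largely with the call and is no separate support. The genes as a whole did not lean to lower levels in GM: the median log2 fold change (GM over CF) of all genes tested was 0.00, with 11444 negative and 11650 positive. At an unadjusted p under 0.05 there were 3382 genes, 2170 lower and 1212 higher. Together the 285 genes lower in GM took 14627 and 15613 CPM in GM libraries, against 28090 and 29085 CPM in CF libraries. These sums are 1.46% and 1.56% of the reads in GM, against 2.81% and 2.91% in CF, and they describe genes that were picked by the same values.

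The falls were mostly of moderate size. The called lower genes had a median log2 fold change of -0.83 and a range of -5.19 to -0.43; 108 of them were at least 2-fold lower, and 20 at least 4-fold lower. The called higher genes ranged from 0.47 to 1.92, and 1 of them was at least 2-fold higher. Of the 292 calls, 29 (9.93%) were heat shock proteins or heat stress transcription factors, lists with 62 and 23 genes tested. In these lists 33.9% and 34.8% of the genes were called, against 1.26% of all genes tested. Any list of heat or protein folding genes held 48 calls (16.4%). The other 244 calls, 83.6%, lay outside all of these lists, and 82 of the 244 changed by at least 2-fold. Seed maturation and storage lists held 32 calls, between 2.56% and 83.3% of the tested genes of each list. Loci whose description names no product held 72 calls (24.7%), which is 1.05% of such loci tested. The plot of fold change against read level shows these sets.

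**Figure D1:**
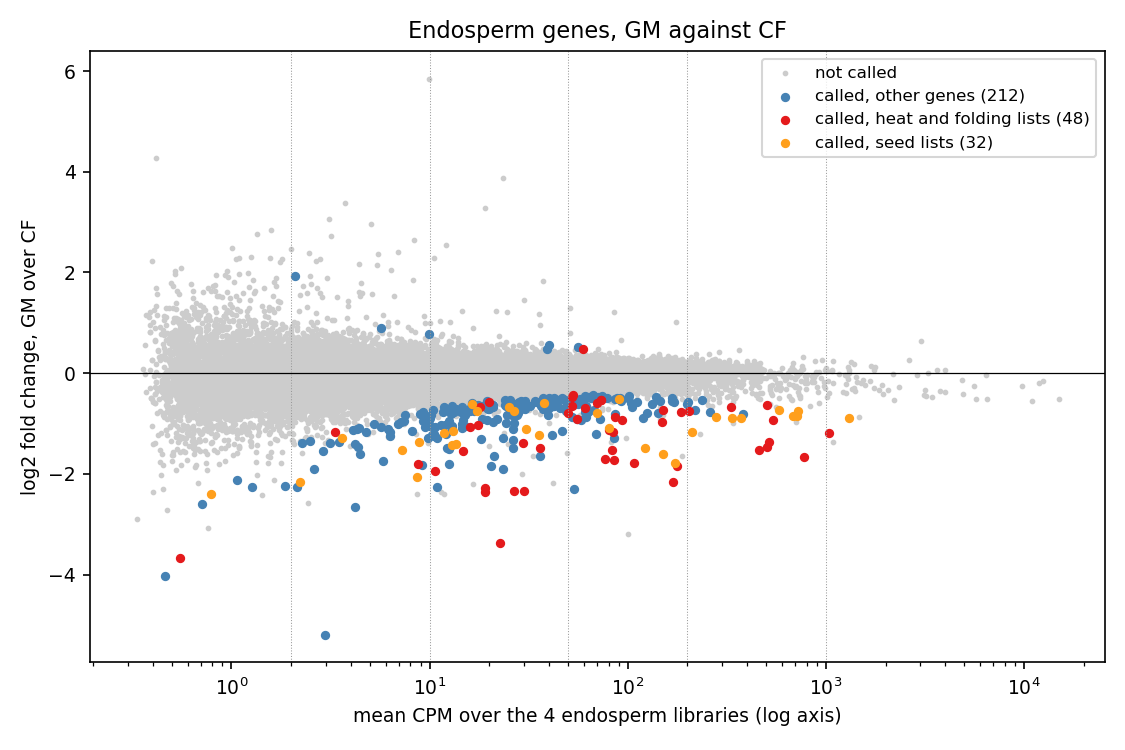
Each point is 1 of the 23094 genes tested, at its mean CPM over the 4 libraries (log axis) and its log2 fold change, GM over CF; dotted lines part the read-abundance classes. Coloured points are the 292 called genes, split into heat and folding lists (48), seed lists (32) and others (212), and nearly all lie under 0.

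Calls were spread over the whole range of read levels, and their share grew with the level up to 1000 CPM. Among 3973 genes with a mean under 2 CPM, 7 were lower and 0 higher, 0.176% of the class. Between 2 and 10 CPM, 42 of 6557 genes were lower and 3 higher, or 0.686%. The share was 1.69% of 8304 genes at 10 to 50 CPM (138 lower, 2 higher) and 2.17% of 3552 genes at 50 to 200 CPM (75 lower, 2 higher). It was 3.28% of 640 genes at 200 to 1000 CPM (21 lower) and 2.94% of 68 genes at 1000 CPM and over (2 lower). The precision followed the same order up to 200 CPM: the median standard error of a log2 fold change was 0.449 under 2 CPM and 0.103 at 50 to 200 CPM. The smallest change that was called was 2.13 under 2 CPM, 0.77 at 2 to 10 CPM and 0.43 at 50 to 200 CPM, on the log2 scale.

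The called genes of low read level had larger changes than those of high level, with a median log2 fold change of -2.40 under 2 CPM and -0.65 at 50 to 200 CPM. The class medians over all genes tested stayed between -0.06 and 0.02 up to 1000 CPM. The 68 genes of 1000 CPM and over had a median of -0.20, with a lower quartile of -0.38 and an upper quartile just under 0. That class took 17.1% and 20.1% of the reads in GM libraries, against 22.0% and 19.8% in CF libraries. Its median was -0.06 without GM replicate 1 and -0.31 without GM replicate 2. The heat shock and heat stress factor lists supplied 11 of the calls at 50 to 200 CPM and 1 of the 45 at 2 to 10 CPM.

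**Figure D2:**
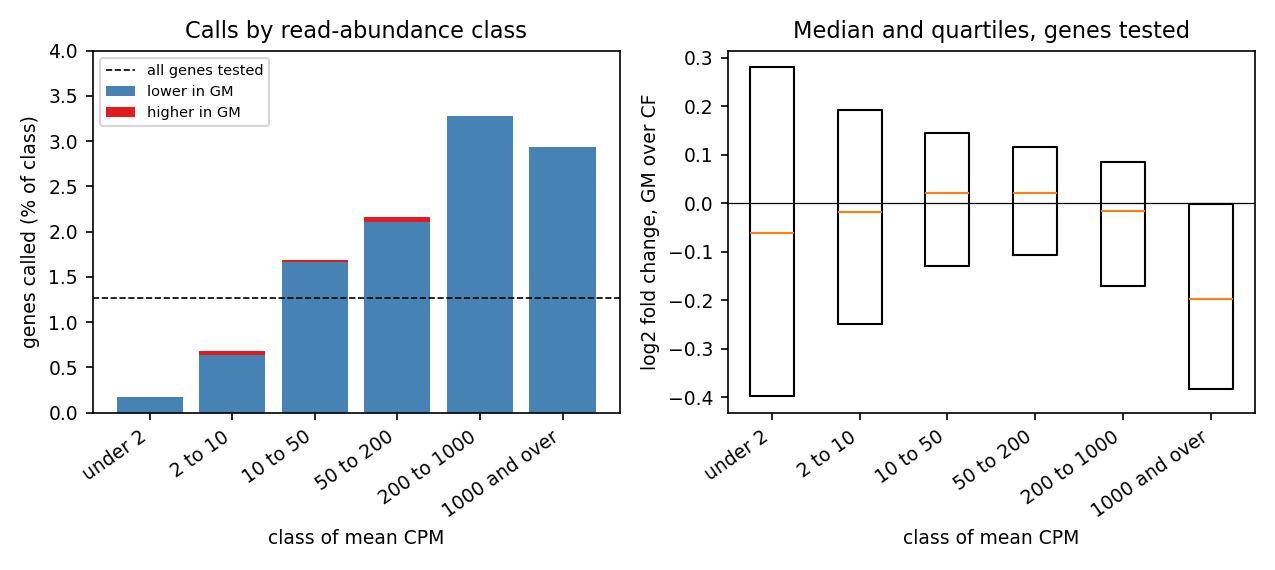
Left, the percent of genes called in each class of mean CPM, lower in GM in blue and higher in red, with a dashed line at 1.26% for all genes tested. Right, boxes from the lower to the upper quartile of the log2 fold change (GM over CF) of all genes in the class, with a line at the median; the box of 1000 CPM and over lies at or under 0.

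The genes with the most reads were not called. The 10 genes of highest mean CPM were the glutelins GLUA1, GLUA2, GLUA3, GLU7 and GLUC, the globulin GLB1, the starch branching enzymes SBE1 and SBE3, the pyruvate orthophosphate dikinase FLO4 and the glycine-rich RNA-binding protein GRP3. All 10 had a negative log2 fold change, between -0.55 and -0.03. GLUA2 had 8288 and 9613 CPM in GM endosperm, against 13714 and 12494 CPM in CF endosperm, which is a log2 fold change of -0.55 ± 0.23 (SE, adjusted p = 0.31). FLO4 had 9882 and 13777 CPM in GM, against 15145 and 11086 CPM in CF, and its libraries overlapped. SBE3, a branching enzyme of amylopectin, had 5679 and 7044 CPM in GM, against 6550 and 6433 CPM in CF, and also overlapped. Below these, 2 genes of 1000 CPM and over passed the test: HSP82A (Os08g0500700), a cytosolic HSP90 chaperone, and RAG2 (Os07g0214300), a seed allergen and amylase inhibitor.

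Outside the heat shock and heat stress factor lists, the call with the largest fold at 5 CPM or more was PUB63 (Os06g0159900). Its description likens it to an Arm repeat protein, while InterPro gives it U-box and tetratricopeptide repeat domains and no Armadillo entry. It had 15.9 and 20.2 CPM in GM endosperm, against 78.7 and 98.9 CPM in CF endosperm, which is a log2 fold change of -2.30 ± 0.15 (SE, adjusted p = 0.00011). The GM libraries were about alike and well under both CF libraries. A locus annotated as similar to the retrotransposon Karma, Os05g0296800, had 3.12 and 4.49 CPM in GM, against 19.7 and 16.3 CPM in CF (log2 -2.26 ± 0.20, adjusted p = 0.00015). It was the only call among 52 transposon-annotated loci tested, whose median was 0.04. That list was drawn by words and missed called genes with a transposase-derived domain. Of 13 genes tested with a Harbinger transposase-derived nuclease domain, 2 were lower. Os03g0701100, a Prp18 domain protein by annotation, which is a domain of pre-mRNA splicing factors, had 8.72 and 11.1 CPM in GM, against 34.4 and 39.5 CPM in CF (log2 -1.90 ± 0.14, adjusted p = 4.3e-05). An omission of a library leaves its group with a single library, and the spread then comes from the other group alone. Calls kept, lost or gained under an omission, here and below, are therefore descriptions and no measure of robustness.

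The 1-Cys peroxiredoxin 1CYSPRXA (Os07g0638300), an antioxidant enzyme typical of aleurone and embryo, gave the smallest p outside the heat lists. It had 69.7 and 79.3 CPM in GM endosperm, against 228 and 226 CPM in CF endosperm (log2 -1.61 ± 0.11, adjusted p = 2.6e-05). Next came Os03g0237500, a locus described only by its likeness to a predicted protein, with 8.13 and 9.67 CPM in GM, against 30.5 and 33.3 CPM in CF (log2 -1.84 ± 0.13, adjusted p = 3.9e-05). The cysteine protease gene OsEnS-106 (Os07g0480900) had 44.3 and 39.1 CPM in GM, against 90.1 and 102 CPM in CF (log2 -1.20 ± 0.11, adjusted p = 0.00015). In each of the 3 the groups stood apart by more than the gap between replicates. At the other end of the test, Os05g0407100 had 10.9 and 16.8 CPM in GM, against 43.3 and 34.2 CPM in CF. It passed at an adjusted p of 0.049 (log2 -1.50 ± 0.23) and no longer passed without CF replicate 1 (adjusted p = 0.403) or CF replicate 2 (0.172).

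**Figure D3:**
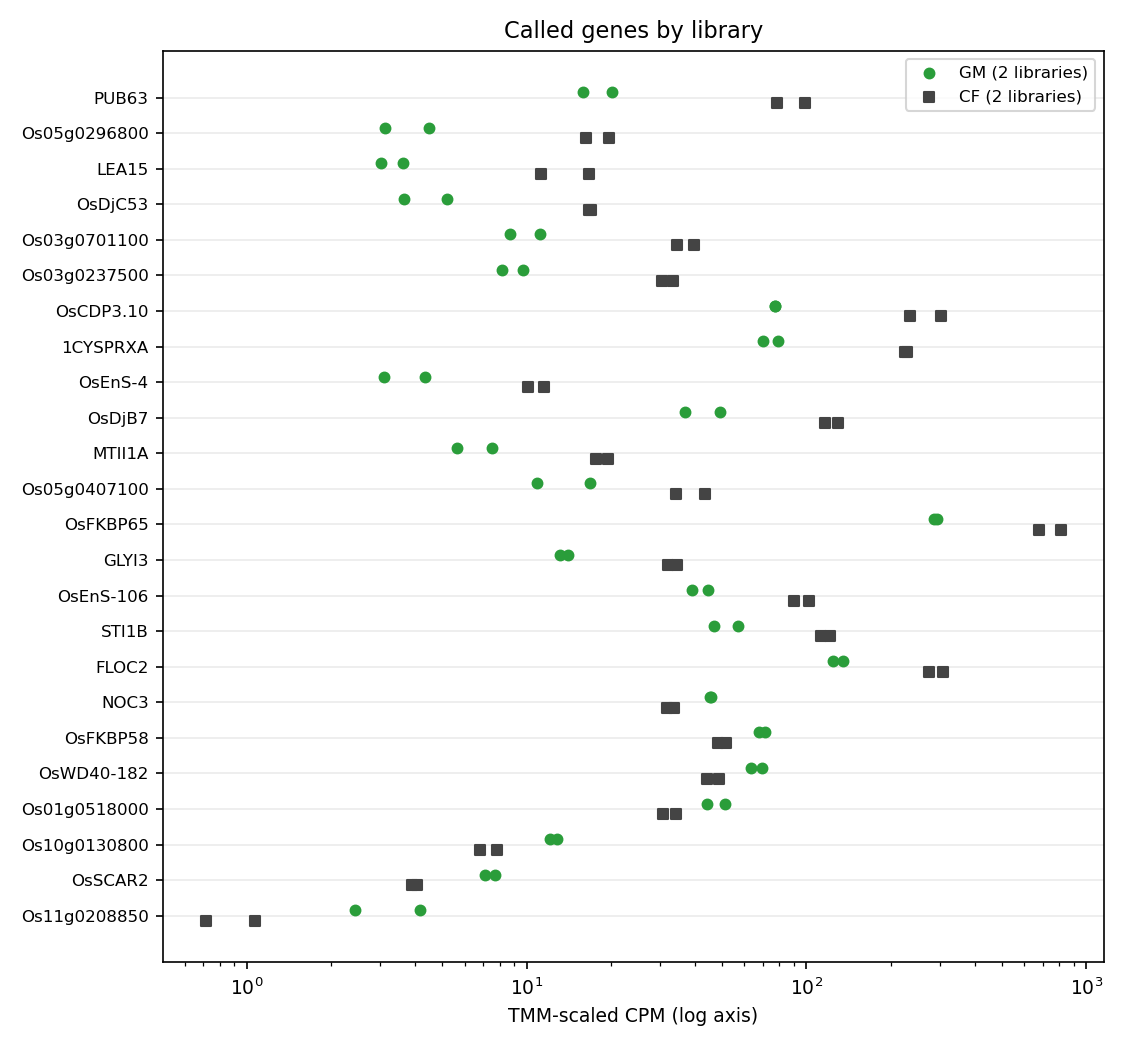
TMM-scaled CPM (log axis) of called genes in each library, GM as green circles and CF as dark squares, ordered by log2 fold change with the largest fall at the top and the 7 genes higher in GM at the bottom. In every gene shown the 2 GM libraries lie on the same side of both CF libraries, an order that goes largely with being called.

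The heat shock protein list had 62 members tested, 21 lower (33.9%) and 0 higher, with a median of -0.39, and the heat stress factor list had 8 of 23 lower (34.8%) with a median of -0.44; without CF replicate 1 the factors called numbered 4, and without CF replicate 2 they numbered 5. The calls reached well into the proteins that work with these chaperones. Of 19 other co-chaperones tested, 5 were lower and 18 had a negative fold change (median -0.42). STI1B (Os04g0538000), a tetratricopeptide co-chaperone that links HSP70 to HSP90, had 46.9 and 56.9 CPM in GM endosperm, against 113 and 121 CPM in CF endosperm (log2 -1.17 ± 0.11, adjusted p = 0.00022). The Aha1-type activators of the HSP90 ATPase, Os08g0464000 and Os02g0139100, had log2 fold changes of -0.92 ± 0.10 and -0.92 ± 0.11. Without CF replicate 1 or CF replicate 2, 3 of this list's members were called.

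Members of the J-domain list, which bring clients to HSP70, did not move as a body: 10 of 131 were lower (7.63%), while the list median was 0.01, with 64 negative and 67 positive. OsDjC53 (Os06g0195800) had 3.66 and 5.19 CPM in GM endosperm, against 16.9 and 16.7 CPM in CF endosperm (log2 -1.93 ± 0.18, adjusted p = 0.00021). OsDjB7 (Os05g0562300) had 36.9 and 49.1 CPM in GM, against 130 and 116 CPM in CF (log2 -1.52 ± 0.14, adjusted p = 0.00041). With CF replicate 1 left out the list had 7 calls, and with CF replicate 2 left out it had 5.

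Prolyl isomerases, enzymes that turn proline bonds during folding, showed calls in both directions: 3 of 59 were lower and 1 was higher, with a median of 0.06. OsFKBP65 (Os04g0352400) had 293 and 285 CPM in GM, against 676 and 811 CPM in CF (log2 -1.36 ± 0.14, adjusted p = 0.00033). Its relative rFKBP75 had 94.4 and 105 CPM in GM, against 188 and 205 CPM in CF (log2 -0.98 ± 0.11). OsFKBP58 (Os04g0446500) went the other way, with 67.4 and 71.0 CPM in GM, against 48.3 and 51.5 CPM in CF (log2 0.47 ± 0.10, adjusted p = 0.038). The call on OsFKBP58 was lost without GM replicate 2, CF replicate 1 or CF replicate 2, with adjusted p of 0.0543, 0.22 and 0.0574, and 2 members of the list were called when either CF library was left out.

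Protein turnover genes showed isolated calls. Of 502 U-box and RING ubiquitin ligases, 6 were lower (1.2%, against 1.26% of all genes), and besides PUB63 they included OsRFPH2-21, with a log2 fold change of -0.87 ± 0.10, and RING328, with -0.83 ± 0.13. This list had 15 calls without GM replicate 1, 14 without GM replicate 2 and 3 without CF replicate 1. Of 330 F-box proteins, 5 were lower, among them SHPR and OsFbox431, but no F-box gene was called without CF replicate 1. Ubiquitin and proteasome genes had 0 of 119 called by edgeR, DESeq2 and limma-voom alike, with 15 at an unadjusted p under 0.05, 9 lower and 6 higher. Among 32 protease and amylase inhibitors 2 were lower, and RASI (Os04g0526600), a bifunctional inhibitor of alpha-amylase and subtilisin, had 49.9 and 51.9 CPM in GM, against 85.0 and 92.3 CPM in CF (log2 -0.80 ± 0.10, adjusted p = 0.0012). The inhibitor list had 7 calls without GM replicate 2 and 1 with either CF library left out.

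Genes of embryo and aleurone maturation formed the other group with many calls. Of 46 genes listed for embryo and aleurone, 29 were tested, 12 were lower and 0 higher (median -0.87), and 6 had no read. Their summed level was 925 and 850 CPM in GM endosperm, against 1533 and 1578 CPM in CF endosperm. In bulk tissue, fewer cells of a type and less RNA per cell cannot be told apart. The marker list shares members with the LEA and oil body lists, so its level is no separate measure, and its part in the results that follow was not tested.

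LEA proteins and dehydrins had 9 of 26 tested members lower (34.6%) and a median of -0.67. LEA16 (Os03g0168100) had 5.24 and 4.65 CPM in GM endosperm, against 12.9 and 12.8 CPM in CF endosperm (log2 -1.37 ± 0.17, adjusted p = 0.0012). OsEnS-4, annotated as a group 3 LEA protein, had 4.34 and 3.08 CPM in GM, against 10.1 and 11.6 CPM in CF (log2 -1.53 ± 0.21). Of embryo, dormancy and desiccation genes outside that list, 6 of 20 were lower (30.0%, median -0.60). Among them, the dormancy-related Os05g0140800 had 6.96 and 7.19 CPM in GM, against 21.7 and 15.8 CPM in CF (log2 -1.42 ± 0.17, adjusted p = 0.0011). Os10g0464300, an AWPM-19-like membrane protein, had 54.6 and 74.1 CPM in GM, against 177 and 182 CPM in CF (log2 -1.48 ± 0.14, adjusted p = 0.00041), and an adjusted p of 0.0657 without CF replicate 1. The last list had 3 calls without CF replicate 1.

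Oil body genes had 5 of 22 tested members lower (22.7%), 0 higher and a median of -0.45, and 3 were called without CF replicate 1. Beside the oleosins, the list held OsHSD2, a hydroxysteroid dehydrogenase, which had 8.45 and 5.95 CPM in GM, against 14.8 and 18.3 CPM in CF (log2 -1.19 ± 0.19), and was not called without CF replicate 2. Cupins outside the storage list had 4 of 40 lower and a median of -0.15; 7 were called without GM replicate 2 and 2 with either CF library left out. OsCDP3.10 (Os03g0793700), annotated for seed vigour, had 77.1 and 77.3 CPM in GM, against 234 and 301 CPM in CF (log2 -1.79 ± 0.13, adjusted p = 4.3e-05). FLOC2 (Os03g0197300), a homologue of the cupin that binds FLO2, had 135 and 124 CPM in GM, against 273 and 307 CPM in CF (log2 -1.16 ± 0.11, adjusted p = 0.00028). OsEnS-50, a DUF1637 protein, had 395 and 480 CPM in GM, against 742 and 704 CPM in CF (log2 -0.72 ± 0.14).

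Storage proteins split by family. Of 6 seed allergen RAG proteins tested, 5 were lower and all 6 had a negative fold change (median -0.80), while of 39 glutelins, prolamins and globulins 1 was lower (median -0.36). The exception was CDP3.2 (Os03g0336100), an 11S seed storage protein by annotation, which had 233 and 240 CPM in GM endosperm, against 442 and 430 CPM in CF endosperm (log2 -0.88 ± 0.12, adjusted p = 0.0022), and it was called under all 4 omissions. The median of the glutelin, prolamin and globulin list depended on the libraries: it was -0.63 when CF replicate 2 was left out and 0.03 when CF replicate 1 was, and 11 members were called without GM replicate 2. RAG2 had 816 and 1017 CPM in GM, against 1525 and 1870 CPM in CF (log2 -0.89 ± 0.18, adjusted p = 0.031). Os07g0216700, with a trypsin and alpha-amylase inhibitor domain, had 463 and 511 CPM in GM, against 857 and 904 CPM in CF (log2 -0.85 ± 0.14). Both calls were lost when either CF library was left out, and the RAG list had 2 calls with CF replicate 1 left out and 1 with CF replicate 2 left out.

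Transcription factors other than heat stress factors held few calls, and no family had more than 2. ONAC2 (Os03g0815100), a NAC factor, had 17.3 and 16.2 CPM in GM endosperm, against 39.1 and 33.3 CPM in CF endosperm (log2 -1.12 ± 0.12, adjusted p = 0.00053). Among B3 factors, 1 of 55 was lower: VP1 (Os01g0911700), the activator of seed maturation and dormancy, which had 29.2 and 29.5 CPM in GM, against 44.3 and 44.6 CPM in CF (log2 -0.60 ± 0.10, adjusted p = 0.011), and an adjusted p of 0.057 without CF replicate 1. Of 69 bZIP factors, 2 were lower and 55 had a negative fold change (median -0.16). The called bZIP genes were O3, annotated as a regulator of grain chalkiness and storage protein, with 77.5 and 87.7 CPM in GM, against 125 and 123 CPM in CF (log2 -0.59 ± 0.10), and BZIP63 (log2 -0.50 ± 0.10); neither was called without CF replicate 1.

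Among other DNA-binding families, EPR1, a homeodomain-like factor, had 23.3 and 34.6 CPM in GM, against 65.4 and 62.3 CPM in CF (log2 -1.15 ± 0.18, adjusted p = 0.044), and ERF57 and NAC58 had log2 fold changes of -0.83 and -0.47. None of these 3 was called without CF replicate 1. WRKY, bHLH, MADS, homeobox, C2H2 and GRAS factors had 0 calls by edgeR, DESeq2 and limma-voom; of 53 WRKY genes, 8 were lower and 1 higher at an unadjusted p under 0.05. In signalling, PP2C9, annotated as a clade A protein phosphatase, the group that acts in abscisic acid signalling, was 1 of 82 phosphatases of its class to be lower (log2 -0.75 ± 0.12, lost when either CF library was left out). CML18, a calmodulin-like calcium sensor, was the 1 gene called among 159 EF-hand genes (log2 -0.80 ± 0.10, adjusted p = 0.0015), of which 2 were called without GM replicate 1 and 6 without GM replicate 2. Of 920 protein kinases, 5 were lower (0.543%) and 0 higher, with a median of 0.04; 42 kinases were called without GM replicate 2, 15 without GM replicate 1 and 2 without CF replicate 1.

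Genes of RNA processing had a positive list median and yet held called falls. Of 212 RNA helicases and splicing factors, 145 had a positive fold change (median 0.07), and the 5 calls were all lower. C3H60 (Os09g0491756), the small subunit of the U2 snRNP auxiliary factor, had 80.5 and 87.9 CPM in GM endosperm, against 160 and 152 CPM in CF endosperm (log2 -0.89 ± 0.10, adjusted p = 0.00078). SCL25, an SC35-like splicing factor, had 55.8 and 52.0 CPM in GM, against 79.2 and 73.4 CPM in CF (log2 -0.50 ± 0.10), and was not called without CF replicate 1. Without that library 3 members of the list were called.

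Detoxification and redox genes held scattered calls. Both called glyoxalases, of 12 tested, were lower under all 4 omissions: GLYI3 (Os03g0277500), which clears methylglyoxal, had 14 and 13.1 CPM in GM, against 34.5 and 32.0 CPM in CF (log2 -1.29 ± 0.12, adjusted p = 0.00015), and GLYI6 had 31.3 and 29.9 CPM in GM, against 48.1 and 50.5 CPM in CF (log2 -0.69 ± 0.10). Of 61 metallothioneins and heavy-metal domain proteins, 3 were lower. MTII1A, an EC-type metallothionein, had 5.65 and 7.51 CPM in GM, against 19.5 and 17.7 CPM in CF (log2 -1.51 ± 0.17), and HIPP32 had 5.69 and 7.19 CPM in GM, against 17.7 and 18.4 CPM in CF (log2 -1.49 ± 0.16). The list also held HIPP8 (log2 -0.46 ± 0.10). Glutathione S-transferases had 0 of 26 called by edgeR, DESeq2 and limma-voom, with 4 lower and 1 higher at an unadjusted p under 0.05. Of 29 universal stress proteins 3 were lower, USP6 (log2 -1.90 ± 0.33), USP3 (-0.56 ± 0.11) and USP19 (-0.55 ± 0.12), and none was called without CF replicate 1.

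Lipid and glycosyl transfer genes had few calls, all lower, and negative medians. Of 169 lipases and GDSL esterases, 7 were lower (4.14%, against 1.26% of all genes, median -0.11), and GELP2 had 42.4 and 37.7 CPM in GM, against 67.6 and 85.7 CPM in CF (log2 -0.93 ± 0.12, adjusted p = 0.0035). Without GM replicate 1 this list had 12 calls, and without CF replicate 1 it had 1. UDP-glycosyltransferases had 3 of 84 lower (3.57%) and a median of -0.27, with UGT75K1 at a log2 fold change of -1.01 ± 0.17 and UGT74H4 at -0.73 ± 0.13; calls numbered 7 and 6 with a GM library left out and 2 with either CF library left out. Lipid transfer proteins had 1 of 43 lower (2.33%), OsLTP1.4 (log2 -0.68 ± 0.13), and a median of -0.25 that was -0.08 without CF replicate 1; calls numbered 8 and 5 without GM replicates 1 and 2, and 2 and 3 without CF replicates 1 and 2.

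Transport and nutrient genes were mostly not called. Of 82 nitrate and peptide transporters 2 were lower; beside NRT1.5A, Os03g0800000, annotated as a nitrate and chloride transporter, had 16.4 and 14 CPM in GM endosperm, against 28.9 and 28.3 CPM in CF endosperm (log2 -0.91 ± 0.12, adjusted p = 0.0028), and was called under all 4 omissions. Of 58 phosphate transport and SPX genes 3 were lower with a list median of 0.04, and beside SPX1 and SPX2 the third was FCO11, a vacuolar phosphate exporter, with 117 and 115 CPM in GM, against 163 and 160 CPM in CF (log2 -0.48 ± 0.10). All 3 were lost without CF replicate 1. Amino acid transporters had 0 of 59 called by edgeR, DESeq2 and limma-voom, with 11 lower and 1 higher at an unadjusted p under 0.05. Metal and potassium transporters likewise had 0 of 56 and 0 of 41 called by the 3 tools, with 5 and 4 at an unadjusted p under 0.05.

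Central metabolism held few calls. Starch synthesis had 0 of 31 genes called by the 3 tools and 1 at an unadjusted p under 0.05 (median -0.03). Glycolysis had 0 of 69 called by edgeR and limma-voom and 2 by DESeq2, with 5 at an unadjusted p under 0.05 (median 0.07). Of 45 respiratory chain genes 1 was lower, SDH2-2, the iron-sulfur subunit of succinate dehydrogenase, at 0.452 and 0.324 CPM in GM, against 1.81 and 1.65 CPM in CF; it was not called when either CF library was left out. Photosystem and light harvesting genes had 1 call among 64, Os07g0178800, an early light-inducible protein by annotation (log2 -1.06 ± 0.21). Of the 64, 55 had a negative fold change and 29 were lower at an unadjusted p under 0.05, and their median of -0.35 was -0.11 with CF replicate 1 left out and -0.53 with CF replicate 2 left out, where 0 and 15 of them were called. The 9 leaf marker genes summed to 1994 and 2103 CPM in GM, against 3132 and 2292 CPM in CF, so that CF replicate 1 was the highest library. Of the 9, 4 are members of the light harvesting list, so the sum is no separate measure of it. The other 5, small subunits of ribulose bisphosphate carboxylase, summed to 515 and 584 CPM in GM, against 744 and 555 CPM in CF, which overlap, and their part in the light harvesting values was not tested.

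On the positive side the data held broad, small shifts with almost no called gene. Of 94 ribosome biogenesis genes, 84 had a positive fold change (median 0.23) and 36 were higher at an unadjusted p under 0.05, with 0 lower at that level; the median lay between 0.19 and 0.28 under the 4 omissions. The only call by edgeR, NOC3 (Os06g0498500), whose yeast counterpart takes part in the export of pre-ribosomes, had 45.8 and 45.3 CPM in GM endosperm, against 33.7 and 31.9 CPM in CF endosperm (log2 0.47 ± 0.10, adjusted p = 0.042). DESeq2 and limma-voom called no gene of the ribosome biogenesis list. Aminoacyl-tRNA synthetases had 65 of 84 positive (median 0.14), histones 41 of 55 (0.18), DNA replication and cell cycle genes 71 of 99 (0.16) and kinesins 46 of 61 (0.15). None of these 4 lists held a call by edgeR, DESeq2 or limma-voom, and at an unadjusted p under 0.05 they had 14, 14, 19 and 13 genes higher. Cytosolic ribosomal proteins had 170 of 218 positive (median 0.12), again with 0 calls by the 3 tools and 24 higher and 2 lower at an unadjusted p under 0.05, but the median was 0.02 without GM replicate 2 and 0.03 without CF replicate 2. Members of a list are not independent samples, so a count of signs is no test.

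Resistance proteins of the NBS-LRR type leaned the same way, with 177 of 245 positive (median 0.15) and 31 higher against 4 lower at an unadjusted p under 0.05. Their calls were 1 higher and 1 lower. The higher gene was Os10g0130800, described as a hypothetical protein but carrying disease resistance domains by InterPro, with 12.2 and 12.8 CPM in GM, against 6.82 and 7.84 CPM in CF (log2 0.77 ± 0.16, adjusted p = 0.038). The lower gene was Os03g0254000, an NB-ARC domain protein, with 85.3 and 82.2 CPM in GM, against 125 and 111 CPM in CF (log2 -0.49 ± 0.10). Both were lost without CF replicate 1, where the list had 0 calls by edgeR, and it had 5 or 12 calls when GM replicate 1 or GM replicate 2 was left out, and 1 when CF replicate 2 was.

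**Figure D4:**
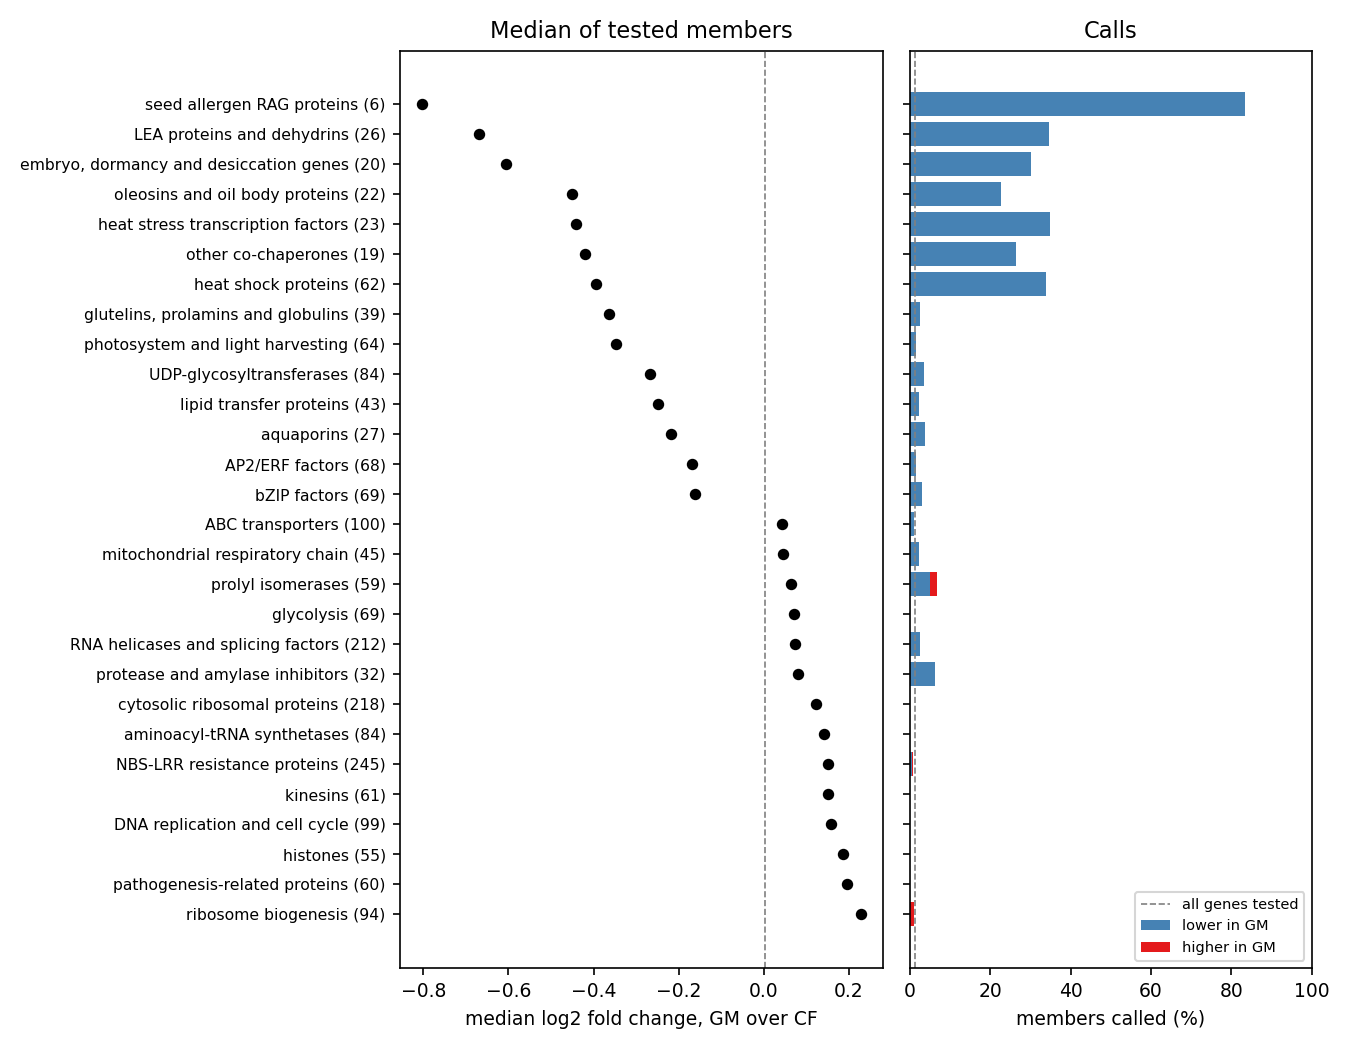
Left, the median log2 fold change (GM over CF) of the tested members, whose number is in brackets, for the 14 gene lists with the lowest and the 14 with the highest medians. Right, the percent of members called, lower in GM in blue and higher in red, with a dashed line at 1.26% for all genes tested; long blue bars stand at the top, and the lists at the bottom have almost no call.

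The 7 genes higher in GM endosperm were a mixed set. OsWD40-182 (Os11g0134500), a WD40 repeat protein, had 63.3 and 69.4 CPM in GM, against 43.9 and 48.8 CPM in CF (log2 0.52 ± 0.10, adjusted p = 0.031). Os01g0518000, of the DUF597 family, had 44.1 and 51.2 CPM in GM, against 34.3 and 30.6 CPM in CF (log2 0.55 ± 0.11, adjusted p = 0.037). OsSCAR2 (Os03g0298700), described as a hypothetical gene but carrying the GO term actin cytoskeleton organization, had 7.09 and 7.73 CPM in GM, against 3.90 and 4.04 CPM in CF (log2 0.90 ± 0.19, adjusted p = 0.048). With NOC3, OsFKBP58 and these 3, the set is completed by Os10g0130800, the NBS-LRR list member given above, and the hypothetical Os11g0208850, with 4.16 and 2.43 CPM in GM, against 0.715 and 1.07 CPM in CF (log2 1.92 ± 0.38, adjusted p = 0.032). DESeq2 did not call NOC3, OsSCAR2 or Os10g0130800, and limma-voom did not call NOC3 or OsSCAR2. None of the 7 was called without CF replicate 1, where their adjusted p-values lay between 0.0846 and 0.259.

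Loci whose description names no product made up 72 of the calls, 68 lower and 4 higher, out of 6861 tested, which is 1.05% of them and close to the share of all genes. The largest fall of the whole comparison was among them: Os10g0430750 had 3 and 3 reads in GM libraries, against 67 and 95 reads in CF libraries, or 0.136 and 0.162 CPM in GM, against 3.68 and 7.84 CPM in CF. With 3 reads in each GM library, its fitted log2 fold change of -5.19 ± 0.53 (adjusted p = 0.00066) depends on the prior count of the fit. These loci had 155 and 200 calls without GM replicates 1 and 2, and 24 and 70 without CF replicates 1 and 2.

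By the deposited annotation, 1469 terms of Gene Ontology (GO) and InterPro had at least 10 genes tested, and 355 of them held a call. The GO terms with the most calls were broad. Protein binding had 23 lower and 1 higher of 2258 (1.06%), ATP binding 17 lower of 1552 (1.1%), and membrane 16 lower of 1128 (1.42%). These shares are close to the 1.26% of all genes tested, so the rank of these terms goes with their size. None of the protein binding or membrane calls was in the heat shock or heat stress factor lists, whereas 10 of the 17 ATP binding calls were. DNA-binding transcription factor activity had 11 of 422 lower, 6 of them in these lists, and metal ion binding had 9 of 232 lower (3.88%), none of them in those lists. Among InterPro entries the most calls stood in HSP20-like chaperones (12 of 36, 33.3%), the alpha crystallin domain (10 of 25, 40%) and the DnaJ domain (9 of 82, 11%).

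Medians of terms with at least 20 genes tested gave a few further groups. After the alpha crystallin domain (median -0.60), the lowest were chlorophyll A-B binding proteins (21 genes, -0.45), phytocyanins, which are small copper proteins (20 genes, 18 negative, 1 called, -0.37), and the alpha/beta hydrolase fold-3 family (31 genes, 24 negative, 2 called, -0.36). From the last, Os11g0239500 had 34.8 and 28.9 CPM in GM endosperm, against 47.2 and 48.7 CPM in CF endosperm (log2 -0.59 ± 0.11, adjusted p = 0.026), and it was called only with all libraries or without GM replicate 1. The highest medians were those of WAK-like receptor kinases (22 genes, 0.29), rRNA processing (46, 0.23), cell surface receptor signalling (38, 0.21), BRCT domains (23, 0.20) and DNA replication (55, 0.20). These 5 terms held 0 calls by edgeR, DESeq2 and limma-voom. At an unadjusted p under 0.05, the rRNA processing term had 16 genes and the DNA replication term 14, all of them higher.

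Calls lay on all 12 chromosomes. Chromosome 3 had the highest share, 61 of 3046 genes tested (2%, 11 of them heat shock proteins or heat stress factors), and chromosome 11 the lowest, 8 of 1290 (0.62%). Adjacent tested genes that were both called formed 13 runs of 29 genes. The longest, of 4 genes, was the allergen cluster of chromosome 7 with OsEnS-96, RA17, RAG2 and RA5B. Most other runs were pairs. Examples are OsDjB7 with the hypothetical Os05g0562350 (log2 -1.52 and -1.37), HSP82A with Os08g0500800 (-1.18 and -0.65) and HSP70 (Os03g0277300) with the glyoxalase GLYI3 (-1.14 and -1.29). These genes were picked out for their place beside each other after their values were seen. The library kit was directional but the strand setting of the counting is not given in the sources used here, so reads of overlapping or antisense neighbours cannot be told apart.

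The largest rises in the GM mean were not called, and the GM libraries differed in each of them. At a mean of 5 CPM or more, 107 genes were at least 2-fold lower in GM, of which 82 were called, whereas 29 genes were at least 2-fold higher and none of these 29 was called. In all 29 the GM replicates differed by more than 2-fold; 27 were higher in GM replicate 1 and 2 in GM replicate 2, and the median ratio of GM replicate 1 to GM replicate 2 was 4.76. In 13 of them GM replicate 2 lay within or below the CF range. By annotation, 11 of the 29 were chitinases, glucanases or pathogenesis-related proteins, enzymes and proteins that plants make against microbes.

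The chitinase C10728 had 83.5 and 4.38 CPM in GM endosperm, against 4.07 and 1.65 CPM in CF endosperm (adjusted p = 0.58). CHT11, another chitinase, had 63.1 and 5.89 CPM in GM, against 3.30 and 3.96 CPM in CF (adjusted p = 0.57). Of 60 pathogenesis-related proteins tested, 0 were called by edgeR, DESeq2 or limma-voom and 6 were at an unadjusted p under 0.05, 4 lower and 2 higher (median 0.19); with GM replicate 2 left out, 24 of them were called. The asparagine synthetase gene ASN1 stood high in the other library, with 13.1 and 56.2 CPM in GM, against 19.2 and 9.82 CPM in CF. So did DIP3, a glycosyl hydrolase of family 18, with 0.497 and 38.7 CPM in GM, against 0.440 and 0.165 CPM in CF.

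**Figure D5:**
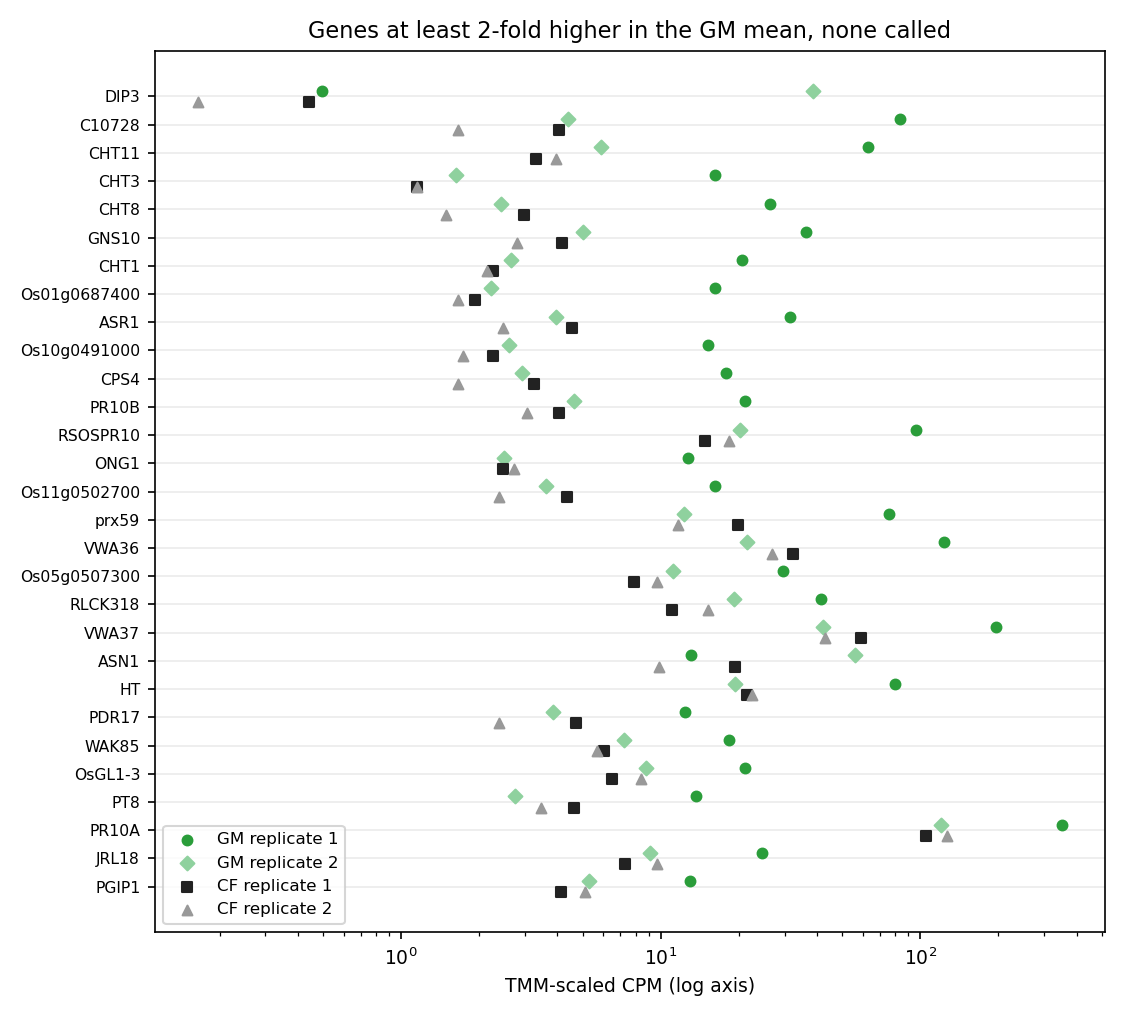
TMM-scaled CPM (log axis) in each library of the 29 genes with a mean of at least 5 CPM and at least 2-fold higher in the GM mean, GM replicates as green circles and light green diamonds and CF replicates as black squares and grey triangles. GM replicate 1 stands to the right of the other libraries in 27 of the 29 genes.

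More widely, replicates were close in genes with a group mean of at least 5 CPM. Their median absolute log2 difference between replicates was 0.115 in GM and 0.135 in CF. By read class it was 0.274 in GM and 0.298 in CF under 2 CPM, and 0.311 and 0.195 at 1000 CPM and over. Of genes with a mean of at least 5 CPM, 112 of 15583 (0.719%) differed by more than 2-fold between GM replicates and 44 of 15750 (0.279%) between CF replicates. The 25 genes at least 2-fold lower that were not called had a median standard error of 0.44, against 0.16 in those called, and in 24 of the 25 the GM libraries lay under both CF libraries. These 25 genes were picked for a lower GM mean, so this order goes largely with the selection. Among them, OsEnS-146, an embryo-specific protein by annotation, had 30.6 and 8.38 CPM in GM, against 98.7 and 262 CPM in CF (log2 -3.19 ± 1.12, adjusted p = 0.43), and BAG5, a co-chaperone of HSP70, had 4.02 and 8.11 CPM in GM, against 33.3 and 21.1 CPM in CF (log2 -2.20 ± 0.48, adjusted p = 0.24).

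How many calls stand without a given library differed greatly between libraries. Each omission left a single library in a group, and the spread came from the other group alone. No robustness is read from these counts. In the counts of lists, one that went from 0 calls to any call is taken as a gain, and one that went to 0 as a fall. Of the 292, 253 were still called without GM replicate 1, 271 without GM replicate 2, 114 when CF replicate 1 was left out and 181 when CF replicate 2 was, and the total number of calls was 694, 944, 135 and 307. The counts of single lists moved likewise: of 69 family lists, 38 gained calls by more than 1.5 times when GM replicate 1 was left out, and 42 did so when GM replicate 2 was. The count fell by more than 1.5 times in 32 lists with CF replicate 1 left out and in 14 with CF replicate 2 left out, where 10 others gained. Without GM replicate 2 there were 8 F-box proteins called, 7 universal stress proteins, 6 NAC factors, 6 metallothioneins and heavy-metal domain proteins, 6 nitrate and peptide transporters, 5 phosphate transport and SPX genes and 6 WRKY factors. Without GM replicate 1 there were 6 protein phosphatases 2C, 4 ribosome biogenesis genes and 7 cytosolic ribosomal proteins called. In all 4 of these fits 99 genes were called, all lower in GM. Of the 99, 20 were heat shock proteins or heat stress factors, 30 were in any heat or folding list, 16 were in seed lists, and 53 were in neither. PUB63, 1CYSPRXA, OsCDP3.10, GLYI3, C3H60, STI1B, ONAC2, LEA16 and CDP3.2 belong to the 99. A gene of few reads, Os04g0422900, with 2 and 0 reads in GM libraries, against 20 and 8 in CF libraries, fell under the read filter without CF replicate 1 and was not tested there. None of the other calls changed sign under an omission.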

How the data were processed

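Poly(A) RNA of 4 endosperm libraries was compared, 2 of GM and 2 of CF, from directional libraries per the labels' protocols. The authors deposited raw counts of unique exon reads per locus, per the labels; the submitters' processing notes name the build IRGSP-1.0, while aligner, counter and filters were not given in the sources used here. Unique counts leave out reads shared by near-identical copies, so families such as prolamins, histones and small heat shock proteins are uncertain. Library totals were 20771235 and 18656783 for GM, against 19173953 and 12200510 for CF.

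The counts were used as deposited in R 4.3.3 with edgeR 4.0.16: filterByExpr by group (minimum count 10), TMM scaling, the robust quasi-likelihood F test of GM over CF, and Benjamini-Hochberg adjustment over all genes tested. The standard error (SE) is the log2 fold change divided by the root of F. DESeq2 1.42.0 and limma 3.58.1 (voom) were alternatives, with upper-quartile scaling, relative log expression (RLE) scaling, other filters, a test against 1.5-fold, a replicate block and the omission of single libraries. On simulated counts (23076 genes) the test recovered 50, 48, 47 and 50 of 50 genes changed by -2, -1, 1 and 2 on the log2 scale, with 21 false among 216 calls. The simulation gave all genes the same spread and changed only genes of at least 5 CPM. Spread differs between genes in the data, so recovery there can be lower. In this simulation the 21 false calls were a larger share of the 216 than the 0.05 threshold aims for. The calls in the data may likewise hold more false ones than the threshold states. Summaries and plots used Python 3.11.15, pandas 2.3.3 and matplotlib 3.10.9.

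The comparison, its 71 gene lists and the naming rule were chosen with earlier results of these data known, and lists were drawn by words in the deposited annotation. The rule named every gene called higher, the 12 calls of largest fall and the 12 of smallest p outside the heat lists, the 3 calls of smallest p in each read class, leading calls of the lists and the 10 genes of most reads. Other genes are said to be chosen after their values were seen where they are singled out; Os10g0430750, Os04g0422900 and the uncalled genes with 2-fold changes are such genes. Lists, terms and classes were described by counts and medians, with no test of their own. Replicate numbers were not taken to pair libraries: deviations of same-numbered libraries had a correlation of -0.0598 over 15710 genes. Replicates differed beyond sampling noise (chi-square per degree of freedom 12.0 in GM and 9.00 in CF).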

Additional observations from a re-analysis of the deposited data

How the results depend on the processing

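The count of 292 calls (285 lower, 7 higher) was 281 with RLE scaling, 236 with upper-quartile scaling, 294 with DESeq2, 282 with limma-voom and 297 without the 20 most abundant genes. Without a filter on low counts it was 1370 (1002 lower, 368 higher), and with a filter of 5 CPM it was 323 (310 lower, 13 higher). A test against a 1.5-fold change called 49 genes, all lower and 0 higher, against the 292 of the plain test. At an unadjusted p under 0.05 it had 394 genes, against 3382 in the plain test. DESeq2 called 7 genes higher. The 7 of DESeq2 were not all the same genes as the 7 of edgeR. Leaving out each library in turn gave 135 to 944 calls, 135 to 584 of them lower and 0 to 360 higher; the lowest counts are those without CF replicate 1 and the highest those without GM replicate 2, and the cause was not tested. Family lists with a call numbered 45, against 15 under the 1.5-fold test and 27 to 60 with a library left out. Annotation terms with a call numbered 355, against 891 without a filter, 79 under the 1.5-fold test and 212 to 721 with a library left out. The share of genes with GM replicates more than 2-fold apart was 0.719% at 5 CPM and 0.35% at 20 CPM. Of 118 named genes, none changed sign; 117 kept their side of the threshold under RLE, 96 under DESeq2, 113 under limma-voom, 43 under the 1.5-fold test and 63 without CF replicate 1.

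With the replicate number as a block, 168 genes were called (162 lower, 6 higher), and 152 of them were among the 292. The pairing has no support in the labels or in the correlation of deviations, so a call lost under the block is not read as a weaker effect. Of the named genes, 74 kept their side of the threshold under the block.

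Depth limits the lowest class: under 2 CPM, changes below 2.13 on the log2 scale were not called. With 2 plants a group, the spread of each gene is largely borrowed from other genes. The planned description of promoter motifs was not run, since promoter sequences were not used here.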

Other observations

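Among genes outside the report's lists that changed at least 2-fold without being called, 3 loci annotated as the large subunit of ribulose bisphosphate carboxylase stood together. OsrbcL1 had 3.57 and 3.95 CPM in GM endosperm, against 25.7 and 12.3 CPM in CF endosperm (log2 -2.36 ± 0.43, edgeR adjusted p = 0.15). Os12g0207600 had 2.17 and 3.46 CPM in GM, against 19.4 and 9.49 CPM in CF, and Os01g0791033 had 3.84 and 3.73 CPM in GM, against 27.2 and 12.4 CPM in CF. CF replicate 1 was the higher CF library in all 3. The GM libraries lay under both CF libraries in these 3, as in 24 of the 25 uncalled genes at least 2-fold lower with a mean of 5 CPM or more. That order goes largely with picking genes by their fall. The plastid gene for this subunit has near-identical copies in the nuclear genome, and the values of these loci are uncertain for that reason.

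Other uncalled falls included the 4 genes given here, which were chosen after their values were seen. OsEnS-6, with a domain of unknown function named for chloroplast import, had 377 and 833 CPM in GM, against 1638 and 1494 CPM in CF (log2 -1.37 ± 0.44, adjusted p = 0.31). Os06g0592500, an ethylene-responsive transcriptional coactivator by annotation, had 72.6 and 111 CPM in GM, against 343 and 227 CPM in CF (log2 -1.64 ± 0.34, adjusted p = 0.20). The desiccation-related gene TRD4.2 had 42.8 and 71.2 CPM in GM, against 131 and 146 CPM in CF (log2 -1.28 ± 0.28, adjusted p = 0.20), and the phosphatase OsACP1, which plants induce when phosphate is scarce, had 3.52 and 6.86 CPM in GM, against 13.5 and 10.2 CPM in CF (log2 -1.21 ± 0.32, adjusted p = 0.18). None of the 4 passed the test. In each the GM libraries lay under both CF libraries, as in 24 of the 25 uncalled genes at least 2-fold lower. Genes picked for such a fall largely have that order by selection, so it is no support.

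Other rises that rested on GM replicate 1 lay outside the chitinase and pathogenesis-related groups. The amino acid transporter HT had 79.9 and 19.3 CPM in GM, against 21.6 and 22.4 CPM in CF, and the abscisic stress-ripening gene ASR1 had 31.4 and 3.95 CPM in GM, against 4.56 and 2.48 CPM in CF. The syn-copalyl diphosphate synthase CPS4, an enzyme of diterpenoid phytoalexin synthesis, had 17.8 and 2.92 CPM in GM, against 3.24 and 1.65 CPM in CF. In HT, ASR1 and CPS4 alike, GM replicate 2 lay within the CF range or below it. These genes were chosen after their values were seen.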
